A study of Nasonia vitripennis with 15 samples.

Results

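In the testes of white nymphs of the parasitoid wasp Nasonia vitripennis kept at 25 °C, 81 transcripts of 80 genes rose between 0 h and 10 h and again between 10 h and 24 h, and stood at much the same level at 24 h in testes kept at 36 °C. They were chosen on the measured values themselves. For each group the median over its 3 pools of the count per 1000000 counts of the library (CPM) was put on the log2(1 + CPM) scale, and a transcript was kept where 10 h exceeded 0 h by at least 0.8, 24 h exceeded 10 h by at least 0.8, the median count at 24 h at 25 °C was at least 10, and 36 °C and 25 °C differed by less than 0.75 at 24 h. The 81 members came from 24626 messenger RNA entries (RefSeq XM or NM) among 26279 transcripts, and from 6918 entries that met the minimum count. Everything said of the rise at 25 °C and of 36 °C against 25 °C at 24 h describes this choice and has no test.

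The study followed spermatogenesis in the AsymC strain, in which germ cells of the male pupa advance in step. Pooled testes gave 15 libraries, 3 pools (A, B and C) for each of 5 groups, which were 0 h at 25 °C, 10 h at 36 °C, 10 h at 25 °C, 24 h at 36 °C and 24 h at 25 °C. The pools at 0 h and 10 h were of white nymphs and those at 24 h of white nymphs with red eyes, with 60 testes per pool by the labels, whereas the methods give a larger number. All groups were of the same strain and sex, no group carried a mutation, and in a pool of whole testes, fewer cells of a type and less RNA per cell cannot be told apart.

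In insects, primary spermatocytes transcribe many of the genes whose products are used later, when the spermatid grows a flagellum built on an axoneme of microtubules and dynein motors. In the wasp pupa this programme runs in cysts of synchronous germ cells, enclosed by somatic cyst cells and a testis sheath. Testes dissected from a pupa can also carry other tissue, such as epidermis that is laying down cuticle, muscle or fat body.

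Library totals ran between 1749769 and 7154421 counts (median 3177175). Pool B at 10 h stood apart from pools A and C at both temperatures. On the first principal component of all libraries, which held 47.3% of the variance, the score at 10 h was 32.1 for pool B against -42.2 for pool A and -56.1 for pool C at 36 °C, and 23.4 against -16.7 and -13.3 at 25 °C, while the 3 pools at 0 h scored -62.9 to -37.0 and those at 24 h at 25 °C 38.7 to 67.1. The tests that use the pools at 10 h at 36 °C are therefore given with and without pool B. The lists for axoneme and sperm tail (4700 to 5114 CPM at 24 h at 36 °C and 5597 to 6677 CPM at 24 h at 25 °C, the member NV16467 left out) and for spermatid differentiation (8420 to 9767 and 10106 to 11563 CPM) were counted in every pool, the first at 2101 CPM or more and the second at 4700 CPM or more. No entry carried a symbol of the lists for gut or for somatic cyst cells.

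Most members carried no informative name. A descriptive symbol was paired with 6 of them in the RefSeq gene table of Nvit_psr_1.1, 1 more had a fruit fly ortholog in the study's list, and the dynein NV16467 is named by the study. An NV number was missing from 42 of the 81 members (51.9%), against 26.7% of the 6918 entries above the minimum count. Of the 75 members matched in the table, all of them protein coding, 23 lay on chromosome 4 (30.7%, against 19.0% of the matched entries above the minimum), 17 on chromosome 1, 12 each on chromosomes 2 and 3 and 11 on chromosome 5. A gene with a single transcript in the files gave 60 members (74.1%, against 71.5%) and the counts of these cannot be split between isoforms. The other 37 entries of member genes held 11 above the minimum count, and 2 of these rose by 0.8 or more in both steps.

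The rise over 24 h had a median of 2.48 on the log2(1 + CPM) scale, with quartiles of 2.18 and 3.48, a lowest value of 1.77 and a highest of 7.36. The first step, over 10 h, had a median of 1.25 (0.81 to 3.03), and the second one of 1.09 (0.81 to 4.66). On the log2 scale a median of 52.9% of the rise had been made by 10 h (18.6% to 69.8%), and 52 members had made more than 50% of it. The median level of the members was 7.85 CPM at 0 h, 23.7 CPM at 10 h and 81.1 CPM at 24 h. At 24 h every pool was above every pool at 0 h for all 81 members, as held for 17.2% of the entries above the minimum. The pools did not overlap between 10 h and 0 h for 51 members (10.9% of all such entries) and between 24 h and 10 h for 54 members (9.27%). Both held for 38 members, and the share of all entries for which both held was not computed. Over the entries above the minimum count the medians of the steps were -0.17 and -0.20. With TMM factors in place of column totals these medians became 0.00 and -0.01, the medians of the members 1.36 and 1.30, and the rule found 148 entries, 71 of the 81 members among them. With column totals it found 45 entries without pool A at 10 h at 25 °C, 28 of the 81 members among them, 98 without pool B, 68 of the 81 members among them, and 70 without pool C, 44 of the 81 members among them.

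**Figure D1:**
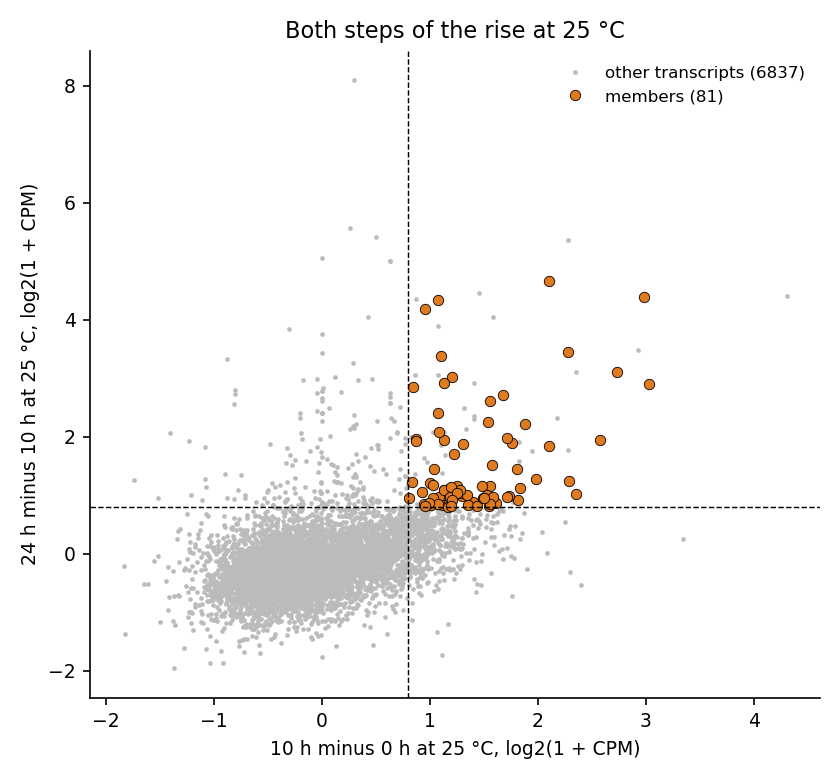
Each point is 1 of 6918 messenger RNA entries above the minimum count, with the step between 0 h and 10 h at 25 °C across and the step between 10 h and 24 h at 25 °C up, both as differences of medians over 3 pools on the log2(1 + CPM) scale. The dashed lines stand at 0.8, and the 81 members (orange) lie on the upper right of both lines, with first steps of up to 3.03 and second steps of up to 4.66. Grey points in the same corner, 40 in all, differed by 0.75 or more between the temperatures at 24 h.

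The limits of the choice cut through a continuous spread. Just inside them stood LOC100680292, with a first step of 0.81, LOC103315804, with a second step of 0.81, LOC100678266, with a median of 12 counts, and XM_008212706, which was 0.73 lower at 36 °C than at 25 °C at 24 h. Just outside stood LOC103315417, with a first step of 0.78, NV12822, with a second step of 0.79, NV50241, with 9 counts, and NV16326, which was 0.80 higher at 36 °C. Of the 121 entries above the minimum count that made both steps, 37 were left out for a level lower at 36 °C and 3 for a level higher at 36 °C. A further 113 entries missed only the first step, 383 only the second and 4 only the count.

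The members of highest count are described first. CPM is not divided by transcript length, so the order of members is one of counts and not of RNA molecules. XM_008208035, an entry with no gene name in the table, had 1655, 2977 and 1447 CPM in pools A, B and C at 0 h, 3589, 5480 and 3951 CPM at 10 h, and 8665, 8153 and 6728 CPM at 24 h, all at 25 °C. Its pools did not overlap between any of the 3 times. LOC100677964 had 1018, 2191 and 986 CPM at 0 h, 2152, 4527 and 2853 CPM at 10 h and 6389, 6450 and 5512 CPM at 24 h. Pool B was the highest of the 3 at 0 h and at 10 h in both, and pool A at 10 h lay slightly below pool B at 0 h in LOC100677964.

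The next members in this order moved alike. LOC100679763 had medians of 1291 CPM at 0 h, 2950 CPM at 10 h and 5252 CPM at 24 h. NV16804 had medians of 1062, 2620 and 5209 CPM at these times, and NV12124 had 675, 1788 and 3290 CPM. None of these 5 has a name or a known role in the sources used here.

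NV16467, which the study names as a dynein, was the sixth in the order and the only member among its genes for sperm motility. Dyneins are the motors that slide the microtubules of the axoneme and so bend the sperm tail. NV16467 had 608, 1568 and 668 CPM in pools A, B and C at 0 h, 1284, 2755 and 1814 CPM at 10 h, and 2603, 3381 and 3195 CPM at 24 h. Pool A at 10 h was below pool B at 0 h and pool A at 24 h below pool B at 10 h, so that neighbouring times overlapped. The first step was 1.44 and the second 0.82, close to the limit.

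The other genes given here of the motility and spermatid lists rose less, or fell, in at least 1 step. NV10434 made steps of 1.04 and 0.49, NV14122 of 0.77 and 0.60, NV16259 of 1.17 and 0.41, NV10124 (Dnai2, an intermediate chain of axonemal dynein) of 0.66 and 0.12, and NV13442 (klhl10, in the fly a spermatid-specific adaptor of a ubiquitin ligase) of 1.01 and 0.78. The study drew the motility and spermatid differentiation genes from those that rose in these same libraries, and reports klhl10 as raised in them. The direction of these genes is therefore no independent evidence. The axoneme list also holds tektin-1 (NV13124) and lebercilin (NV11655), which the study did not pick in this way. In their entries of higher count, tektin-1 made steps of 0.72 and -0.04 and lebercilin of 0.72 and -0.37. Among 15 entries of the axoneme list, 8 were above the minimum count and had a median rise of 1.13 over 24 h, and 5 entries of the spermatid list had one of 1.29. None of the 63 entries of the meiosis list was a member, and the 16 of them above the minimum had a median change of -0.33.

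The members that rose most started at or near 0. NV12557 had 1.15, 0.603 and 2.29 CPM in pools A, B and C at 0 h, 5.50, 123 and 16.0 CPM at 10 h and 836, 354 and 353 CPM at 24 h, a rise of 7.36 on the log2(1 + CPM) scale. NV10782 had no count in any pool at 0 h, 0, 39.0 and 3.31 CPM at 10 h and 212, 71.3 and 108 CPM at 24 h. Set against a floor of 3 counts over the group at 0 h (0.236 CPM), its pooled level of 144 CPM at 24 h was at least 608-fold higher. The 3 pools at 10 h were far apart in both, with pool B highest.

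LOC103315476, LOC103316482, NV12637 and LOC103315575 completed the 6 largest rises, with 5.94, 5.84, 5.74 and 5.42 on the log2(1 + CPM) scale. NV12637 had 0.229, 100 and 3.86 CPM in pools A, B and C at 10 h, a spread wider than its step. LOC103315575 made only 19.8% of its rise by 10 h, where it had 0, 7.87 and 1.10 CPM, and had 109, 17.9 and 41.9 CPM at 24 h. None of these genes has a descriptive name in the table.

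Among the members with a name, 4 belonged to the list of cuticle genes. That list had 64 entries, of which 17, these members included, were above the minimum count and had a median rise of 1.76 over 24 h. Osi8 is a member of the Osiris family, insect proteins made in epithelia that secrete cuticle, and had no count at 0 h, 0.688, 43.4 and 2.21 CPM at 10 h and 6.73, 49.7 and 19.95 CPM at 24 h. Its pooled 22.0 CPM at 24 h was at least 93.2-fold above the floor at 0 h, although pool A at 24 h lay below pool B at 10 h. CPLCP2 and CPLCP3, cuticular proteins of low complexity rich in proline, had 140, 34.1 and 19.2 CPM and 94.7, 7.62 and 10.2 CPM at 24 h. Cpap3-a1, a cuticular protein with chitin-binding domains, had 58.4, 9.41 and 6.65 CPM. Pool A was by far the highest at 24 h in CPLCP2, CPLCP3 and Cpap3-a1, and not in Osi8.

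NV18317, listed as the ortholog of fly Act88F, the actin of the indirect flight muscle, had 39.0, 13.0 and 30.3 CPM in pools A, B and C at 0 h, 81.6, 498 and 114 CPM at 10 h and 884, 529 and 538 CPM at 24 h. C1q-VP, which is named for a C1q-like venom protein of this wasp, made only 18.6% of its rise by 10 h and had 3.67, 55.4 and 3.86 CPM at 10 h, against 311, 87.4 and 57.1 CPM at 24 h. CYP6AQ5, a cytochrome P450 of a family known for detoxification, was among the lowest members, with 8.61, 2.69 and 6.26 CPM at 24 h. Its pools at 24 h overlapped those at 10 h, which were 0.458, 6.92 and 2.21 CPM.

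**Figure D2:**
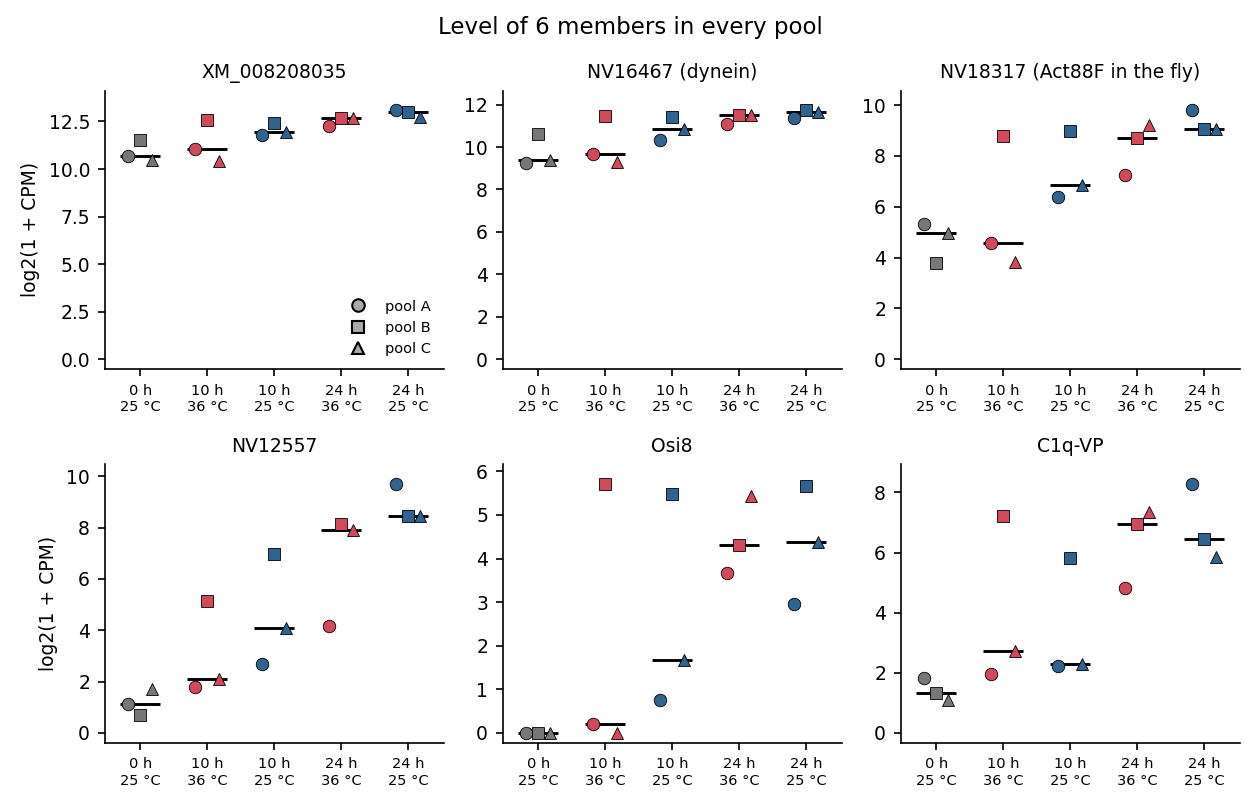
Level of 6 members on the log2(1 + CPM) scale, with a point for each pool (circle A, square B, triangle C), a bar at the median of 3 pools, and the groups ordered by time with 36 °C (red) left of 25 °C (blue). At 10 h at 36 °C pool B of every one of the 6 stands far above pools A and C. Pools A and C lie near the pools at 0 h (grey), except in C1q-VP, where they lie about as high as pools A and C at 10 h at 25 °C.

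Split at 100 CPM at 24 h, a limit set after the values were seen, 36 members stood at or above it and 45 below. The members at or above it had a median first step of 1.42 and a median second step of 0.98, and those below it 1.14 and 1.18. Over 15 libraries the correlation of a member with the median profile of all 81 had a median of 0.95, with a lowest value of 0.68 for CYP6AQ5, which is a description of transcripts chosen to rise together.

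The pools of a group differed in a common direction. Pool B was the highest of the 3 at 10 h at 36 °C for all 81 members, against 33.4% of the entries above the minimum count, and pool B at 10 h at 25 °C was the highest for 79 members (31.7%). Over the members, pool B exceeded the mean of pools A and C by a median of 2.01 at 36 °C and of 0.99 at 25 °C, on the log2(1 + CPM) scale, against medians of -0.26 and -0.02 over those entries. At 24 h pool A was the lowest of the 3 at 36 °C for 77 members, for which the share over all entries was not computed. At 25 °C pool A was the highest for 60 members (19.9% of the entries above the minimum). It exceeded the other pools by more than 1 for 15 members (1.99% of those entries), 12 of them below 100 CPM. The rule did not use the 3 pools at 10 h at 36 °C, and it used the medians of the others.

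Lists of genes that were no members differed between the same pools. The 60 cuticle entries, 14 of them at 0 in every library, summed to 1110 CPM in pool B at 10 h at 36 °C, against 312 and 288 CPM in pools A and C, and to 721 CPM in pool B at 10 h at 25 °C, against 419 and 429 CPM in pools A and C. At 24 h they summed to 484, 663 and 1709 CPM in pools A, B and C at 36 °C and to 9825, 868 and 937 CPM at 25 °C, of which apd-3, named for an apidermin of the cuticle, gave 7955 CPM in pool A. At 0 h they summed to 251 to 361 CPM. A few entries gave much of the sum in pool B at 10 h. At 36 °C apd-3 had 437 CPM in pool B, against 0.453 and 0.553 CPM in pools A and C. CPR47 had 359 CPM there, against 134 and 121 CPM. At 25 °C apd-3 had 209 CPM in pool B, against 0 and 18.7 CPM in pools A and C. No other muscle marker was matched by symbol beside NV18317. The 4 entries for fat body summed to 15.5 to 50.5 CPM at 10 h at 36 °C and 59.0 to 75.2 CPM at 10 h at 25 °C, and the 58 for nerve, 31 of them at 0 throughout, to 61.2 to 66.8 and 44.7 to 53.5 CPM. The list for the axoneme and sperm tail, without its members, summed to 5644 CPM in pool B at 10 h at 36 °C, against 2532 and 2101 CPM in pools A and C, and to 6064 CPM in pool B at 10 h at 25 °C, against 4006 and 4821 CPM in pools A and C. The list for spermatid differentiation summed to 9343 CPM in pool B at 10 h at 36 °C, against 5725 and 5350 CPM in pools A and C. Its largest entry, DLC-A (NV13256), had a group median of 4538 CPM at 10 h at 36 °C. NV16259 is in both lists, so the 2 sums are not separate. At 10 h at 36 °C nanos, a marker of early germ cells, had 1.82 CPM in pool B and 8.45 and 11.1 CPM in pools A and C, and at 10 h at 25 °C 5.98 CPM in pool B and 4.36 and 2.76 CPM in pools A and C. The part of epidermis, another tissue or the germ cells' stage in the spread of the members between pools was not tested.

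The comparison of 36 °C with 25 °C at 10 h asks whether heat altered the first step. By group medians 76 of the 81 members were lower at 36 °C, with a median difference of -1.02 on the log2(1 + CPM) scale. Over the entries above the minimum count the median difference was 0.03. In the edgeR quasi-likelihood test over 8351 transcripts, 0 of the 81 members passed an adjusted p of 0.05 in either direction, where 2.24% of all transcripts were called higher at 36 °C and 1.38% lower. At an unadjusted p under 0.05 there were also 0 members, against 18.7% of all transcripts tested, and DESeq2 called 0. All 81 members passed the filter on low counts of this fit, which holds the pools at 24 h where members were high by choice, and with the 6 libraries at 10 h alone 73 passed it, Osi8 not among them. The fitted log2 fold changes had a median of -0.36 over the members (-1.67 to 2.33) and of 0.00 over all transcripts tested, with a median standard error of 0.65 for a member. The 3 pools at 10 h at 25 °C entered the rule, so this comparison is not independent of the choice of members.

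The value rested on pool B at 36 °C. Without it, 47 of the 81 members (58.0%) were called lower at 36 °C and 0 higher, against 14.8% and 12.2% of 8485 transcripts tested, and the median log2 fold change of the members was -1.57, also with the 3 members that had no count in either remaining pool set to their bound. Among the 65 members with 10 or more counts in these pools together, the values ran between -4.38 and -0.06. Of the 47 members, 29 were at or above 100 CPM at 24 h and 18 below. This comparison kept pool B at 25 °C, which was the highest of its 3 for 79 members. The pools at 10 h at 25 °C entered the rule for members and not for other transcripts, so the shares over all transcripts are no matched background. Without pool B at both temperatures, a comparison added after the values were seen, 36 members were called lower (11.4% of all transcripts). The median log2 fold change of the members was then -1.21. Leaving out any other single pool at 10 h left 0 members called, with medians of -0.51 to 0.15, and the median was above 0 without pool B at 25 °C (0.15) and without pool A at 36 °C (0.01).

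Within the pairs of pools of the same letter the difference was uneven. Between pools A the median difference of 36 °C minus 25 °C was -0.74 on the log2(1 + CPM) scale, with 70 of 81 members lower at 36 °C. Between pools C the median difference was -1.36, with 72 members lower, and between pools B it was 0.12, with 29 members lower. Over all transcripts tested the medians were 0.13, -0.08 and 0.06 for pools A, B and C, and 41.2%, 57.2% and 45.2% were lower at 36 °C. A member was lower at 36 °C in both A and C in 64 cases (79.0%, against 30.5% of transcripts tested), and in all 3 letters in 21 cases (25.9%, against 18.2%). No member had all 3 pools at 36 °C below all 3 at 25 °C, as 7.87% of transcripts tested did. Each pair holds a pool at 10 h at 25 °C that entered the rule, so these shares too are no matched background.

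**Figure D3:**
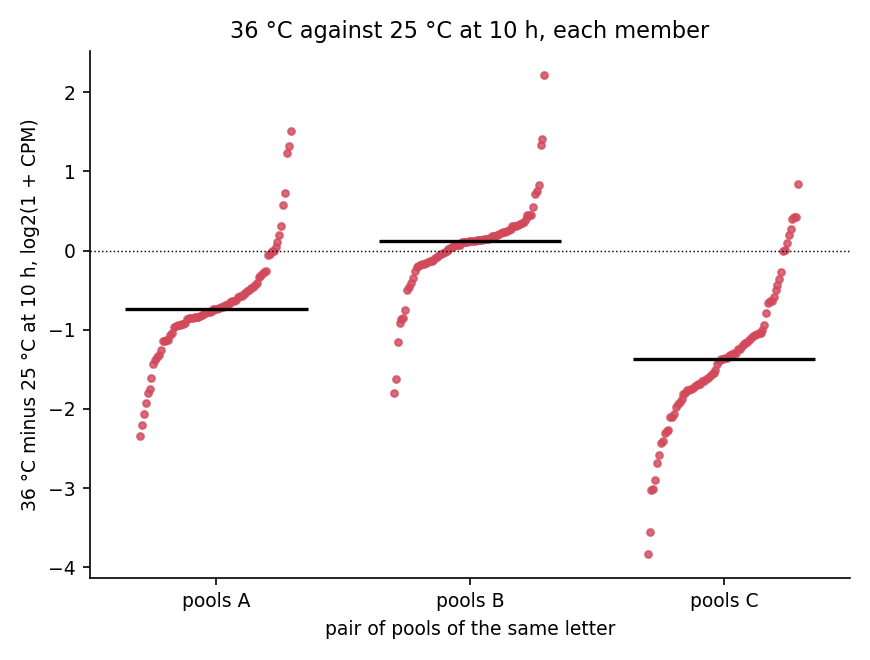
Difference between 36 °C and 25 °C at 10 h for each of the 81 members on the log2(1 + CPM) scale, sorted by size within each pair of pools of the same letter, with a bar at the median. The bars stand at -0.74 for pools A, 0.12 for pools B and -1.36 for pools C.

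Single members followed the same division. XM_008208035 had 2152, 6028 and 1391 CPM in pools A, B and C at 10 h at 36 °C, against 3589, 5480 and 3951 CPM at 25 °C, with a log2 fold change of -0.41 ± 0.49 (SE) and an adjusted p of 0.69 by edgeR. Without pool B at 36 °C it was -1.39 ± 0.28, with an adjusted p of 0.0022, and without pool B at both temperatures -1.18, with an adjusted p of 0.012. NV16467, the dynein, had 803, 2810 and 617 CPM at 36 °C, against 1284, 2755 and 1814 CPM at 25 °C, with -0.43 ± 0.51 and an adjusted p of 0.69 by edgeR. Without pool B at 36 °C NV16467 had -1.56 ± 0.28 and an adjusted p of 0.0011. Without pool B at both temperatures it had -1.21 and an adjusted p of 0.0036. In both genes, pools A and C at 36 °C were below every pool at 25 °C, and pool B was above them all.

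The actin NV18317 had 22.8, 444 and 13.3 CPM at 36 °C, against 81.6, 498 and 114 CPM at 25 °C. Its log2 fold change was -0.43 ± 1.29 with an adjusted p of 0.89 by edgeR, and -3.69 ± 1.12 with an adjusted p of 0.047 without pool B at 36 °C. Without pool B at both temperatures it was -2.41, with an adjusted p of 0.075. Of the members that started near 0, NV12557, Osi8 and C1q-VP were called under neither setting. NV12557 had 2.41, 34.7 and 3.32 CPM at 36 °C, against 5.50, 123 and 16.0 CPM at 25 °C, with adjusted p-values by edgeR of 0.60 with pool B and 0.19 without it at 36 °C. Osi8 had 0.151, 51.4 and 0 CPM at 36 °C, against 0.688, 43.4 and 2.21 CPM at 25 °C (adjusted p of 0.95, and 0.13 without pool B at 36 °C). C1q-VP had 2.87, 149 and 5.53 CPM, against 3.67, 55.4 and 3.86 CPM at 25 °C, with a log2 fold change of 1.42 ± 1.64 and an adjusted p of 0.69 by edgeR, and -2.67 ± 1.91 with an adjusted p of 0.35 without pool B at 36 °C.

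Pools A and C at 10 h at 36 °C lay at the level of 0 h. Relative to the mean of the 3 pools at 0 h, the median change of the members was 0.16 in pool A, 1.95 in pool B and -0.22 in pool C at 10 h at 36 °C, against 0.92, 1.90 and 1.07 at 10 h at 25 °C. Pools A and C at 36 °C were both at or below the highest pool at 0 h for 56 members (69.1%), and pool B was so for 0. Among the 133 other entries that met the limits on count and on heat at 24 h and rose by 1.6 or more over 24 h, though not by 0.8 in both steps, pools A and C were both at or below that pool for 68.4%. Pool B at 36 °C was the highest of its 3 for 130 of these 133 entries (97.7%).

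**Figure D4:**
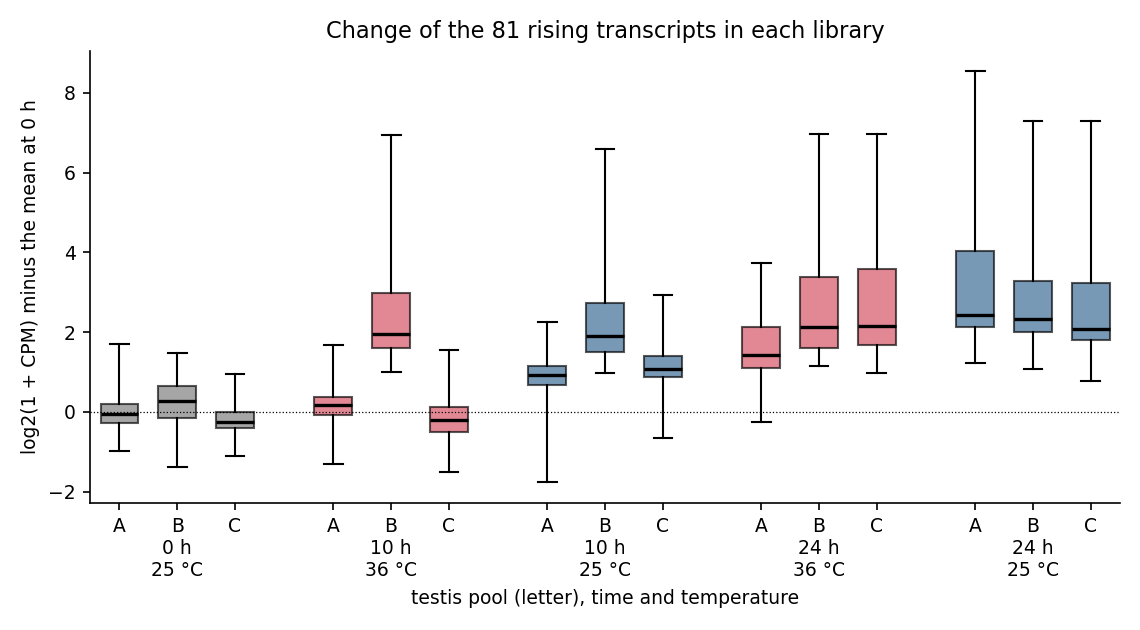
Change of the 81 members in each library, as log2(1 + CPM) minus the mean of the 3 pools at 0 h, with boxes for the quartiles, a line at the median and whiskers to the lowest and highest member (grey 0 h, red 36 °C, blue 25 °C). At 10 h the medians at 36 °C are 0.16, 1.95 and -0.22 in pools A, B and C, and those at 25 °C are 0.92, 1.90 and 1.07.

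The test of 10 h at 36 °C against 0 h asks whether the first step took place in the heat. The pools at 0 h entered the rule as the low end of that step, so the comparison is not independent of the choice of members. Only 58 of the 81 members passed the filter on low counts of this fit, which holds 6 libraries, and of these 0 passed the test, where 0.652% of 8894 transcripts were called higher and 0.18% lower. At an unadjusted p under 0.05 there were 13 members, all of them higher at 10 h at 36 °C, against 14.1% of all transcripts tested in either direction, and DESeq2 called 6 of the 81 members higher (0.929% of 16689 transcripts). These 6 were NV16655, NV15179, NV12293, LOC100677823, LOC100679413 and LOC103317710, named here because DESeq2 called them and not by the rule for named genes. LOC103317710 had 9.65, 22.2 and 10.5 CPM in pools A, B and C at 10 h at 36 °C, against 3.001, 3.77 and 4.57 CPM at 0 h, so that its pools did not overlap. LOC100677823 had 132, 618 and 121 CPM at 10 h at 36 °C, against 50.1, 40.7 and 32.6 CPM at 0 h. Without pool B at 36 °C, edgeR called 1 of the 55 members tested higher, and the share over all transcripts was not computed for this fit.

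The second step in the heat was set between 24 h and 10 h at 36 °C. The pools at 24 h at 36 °C entered the rule, which kept them near the high level at 25 °C, so the calls below, with or without pool B, describe members chosen in part on these values. In edgeR 0 of the 81 members were called, where 0.0599% of 8351 transcripts were called higher at 24 h and 0.012% lower, and 9 members were higher at an unadjusted p under 0.05, against 20.1% of all transcripts in either direction. DESeq2 called 1 member higher (LOC100679256, where 0.431% of 17156 transcripts were called higher). The fitted log2 fold change was above 0 for 80 of 81 members, with a median of 0.90 (-0.80 to 3.60). Without pool B at 10 h at 36 °C, 65 members (80.2%) were called higher at 24 h, against 17.9% of 8485 transcripts, and 0 lower, against 16.9%, and the median was 2.22. Without any other single pool of these groups 0 were called.

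XM_008208035 had 4980, 6546 and 6503 CPM in pools A, B and C at 24 h at 36 °C, against 2152, 6028 and 1391 CPM at 10 h at 36 °C. NV16467 had 2182, 2932 and 2867 CPM at 24 h, against 803, 2810 and 617 CPM at 10 h. In both, pool B at 10 h overlapped the pools at 24 h and pools A and C did not. NV18317 had 150, 418 and 601 CPM at 24 h at 36 °C, against 22.8, 444 and 13.3 CPM at 10 h, and here pool A at 24 h was below pool B at 10 h.

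At 24 h the members stood at a median of 56.8 CPM at 36 °C and 81.1 CPM at 25 °C, within the limit that chose them. By group medians 65 of 81 were lower at 36 °C, with a median difference of -0.36 on the log2(1 + CPM) scale, against 0.07 over the entries above the minimum count, 43.8% of which were lower. Relative to 0 h, the median change was 1.43, 2.12 and 2.16 in pools A, B and C at 24 h at 36 °C, against 2.44, 2.34 and 2.08 at 24 h at 25 °C. Pool A at 36 °C stood lowest, and the medians of pools B and C at 36 °C lay within the range of those at 25 °C.

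A background to the division at 10 h comes from transcripts that rose by 1.6 or more over 24 h as a whole. They did not make both steps and met the same limits on count and on heat at 24 h. Without pool B at 36 °C, 76 of the 95 that did not make the second step (80.0%) were called lower at 36 °C at 10 h, as were 47 of the 81 members and 1 of the 38 that did not make the first step. The median log2 fold changes of the 95 and the 38 were then -1.36 and -1.13, against -1.57 for the members. With all pools they were -0.40 and 0.24, against -0.36 for the members. The difference between these sets was not tested, since each was chosen on the pools at 10 h at 25 °C.

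A few members lay near each other. On chromosome 4, NV12637 lay 6 genes from Osi8, NV12646 16 genes and LOC103317710 22 genes, all on the same side, in the gene order of Nvit_psr_1.1, which was looked up after the values were seen. Osi7, another gene of the family, also looked up at that point, made steps of 1.41 and 2.93, like the 1.68 and 2.71 of Osi8, and was left out only because it was 0.85 lower at 36 °C than at 25 °C at 24 h. NV12637 had 0, 128 and 0 CPM in pools A, B and C at 10 h at 36 °C, against 0.229, 100 and 3.86 CPM at 25 °C, much as Osi8. XM_008212705 and XM_008212706 were entries of 1 gene, and so do not count as separate genes.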

How the data were processed

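RNA of pooled testes was sequenced in 5 groups of 3 pools, and a pool was 1 replicate. Reads were mapped by the authors to the genome build Nvit_2.1, for which the submitters' notes list TopHat2 2.1.0, and were counted per RefSeq transcript with htseq-count according to the methods, while the notes list featureCounts 1.6.3. The deposited raw counts of 6 tables with 26279 transcripts were used as they stand, and 39 of 39 repeated columns were identical. Another 54 columns of normalized values were left out, as were the fold changes and p-values the authors obtained with DESeq2. The strand setting of the counter was not stated, so reads of a gene and of an antisense partner cannot be told apart. The pools of a group differed from each other by more than sampling noise in every pair.

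CPM was the count divided by the column total, times 1000000. Members, lists and tests were chosen with earlier results of these data known. The main test was the quasi-likelihood F test of edgeR 4.0.16 in R 4.3.3 (robust fit, TMM normalization, filterByExpr), adjusted by Benjamini-Hochberg over all transcripts tested, with a threshold of 0.05. The pools of 36 °C and 25 °C at 10 h and 24 h shared 1 fit of 12 libraries, and 10 h at 36 °C against 0 h used 6. The code was tested on simulated counts. The alternatives were DESeq2 1.42.0, other scalings and filters, a replicate block and leaving out single pools. Nothing in the labels says that pools came from separate cultures, so p-values measure the spread between these pools.

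As a check of pairing, deviations from the group means were correlated between pools of the same letter over 8182 transcripts. The correlations were 0.37, 0.55 and 0.24 for A, B and C between 36 °C and 25 °C at 10 h, where the letters were taken to pair the pools. Pool C at 36 °C correlated at 0.26 with pool A at 25 °C, and pool A at 36 °C at 0.19 with pool C at 25 °C. Different letters that included a pool B gave -0.51 to -0.26. Pool B stood apart at both temperatures, so this check cannot show that pools A and C pair by letter. Between 24 h and 10 h at 36 °C, and between 10 h at 36 °C and 0 h, not every letter passed 0.1.

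Named members were the dynein of the paper's text, those with a descriptive symbol or a fly ortholog, the 6 of highest CPM at 24 h at 25 °C, the 6 of largest rise and the entries beside each limit, and others are named as exceptions. Python 3.11.15 with pandas 2.3.3 and numpy 2.4.6 made the tables, and matplotlib 3.10.9 drew the figures.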

Additional observations from a re-analysis of the deposited data

How the results depend on the processing

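The values rest on 3 pools a group, and at 10 h on how pool B is treated. The number of members was 148 with TMM-scaled CPM in the rule, and 45 to 98 without single pools. For heat at 10 h, the members called lower numbered 0 under DESeq2, without TMM factors, without the filter on low counts, with 15 or 6 libraries in the fit and with the replicate block, 0 to 47 without single pools, and 36 without pool B at both temperatures. The median log2 fold change was -1.57 to 0.15 without single pools. Between 24 h and 10 h at 36 °C, DESeq2 called 1 member, and 0 to 65 were called without single pools. For 10 h at 36 °C against 0 h, DESeq2 called 6, the fit without the filter 1, the fit of 15 libraries 2, and the fits without single pools 0 to 1, with medians of -0.14 to 1.41. With the replicate block by pool letter 4 of the 58 members tested were called higher in this comparison, against 2.24% of 8894 transcripts, and the pools share only a letter. The block changed no other call (0 for heat at 10 h and 0 for 24 h against 10 h at 36 °C). For heat at 10 h the median log2 fold change of the members was -0.52 with the block, against -0.36 in the main fit, which had none.

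Without single pools, the log2 fold change for heat at 10 h ran between -1.39 and -0.03 for XM_008208035, -1.56 and -0.04 for NV16467, -3.69 and 0.84 for NV18317, -4.29 and 0.68 for NV12557, -6.73 and 3.98 for Osi8 and -2.67 and 3.93 for C1q-VP. Without pool B at both temperatures Osi8 had -3.03 and C1q-VP -0.16, and with the replicate block Osi8 had -0.014, all of the opposite sign to the values with all pools. The cause was not tested.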
